A study of Mus musculus with 3 samples.

Results

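RNA sequencing of mouse gastric organoids was used to compare a culture labelled Mist1+ with one labelled Mist1-. These are 2 of the 3 libraries of the study, with 1 library a side. Genes were compared if the FPKM (counts scaled to exon length and to library size) reached 1 in at least 1 of the pair, which held for 12787 of the 56691 genes in the table. Organoids are small hollow structures that epithelial cells form in a gel, here Matrigel, and both cultures were held in a proliferating medium. The Mist1+ and Mist1- cultures carry the genotype label WT, the tissue label stomach and the cell type label gastric epithelia. Both derived from corpus of Mist1Cre/ERT2;RFPLSL mice of about 8 weeks, so the Cre and reporter alleles are common to them. The third culture, labelled Gpx4 KO-Mist1+, came from Gpx4F/F;Mist1Cre/ERT2;RFPLSL mice and was grown in the same way. Every title also carries the label P5. How the cells were sorted, when Cre was induced and how many mice gave cells are not in the sources used here. Because 1 library stood on each side, nothing here has a replicate check, and no p-value was computed. Intervals on folds cover counting error only, at 95%.

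Mist1 is the protein of Bhlha15, a basic helix-loop-helix transcription factor that helps secretory cells build their granules and rough endoplasmic reticulum. In the stomach corpus it is known for the zymogenic chief cells at the gland base, which store pepsinogen and, in the mouse, intrinsic factor. The other epithelial cells of the gland are surface pit cells with their mucus and trefoil peptides, mucous neck cells, held to be a source of chief cells, and acid-secreting parietal cells. Cre/ERT2 recombinase acts only with tamoxifen, and a reporter behind a removable stop cassette then stays on in the descendants of a marked cell. The mark thus records an earlier activity of Mist1 and not its present level. The sources used here do not describe the sorting, so the labels Mist1+ and Mist1- are not shown to stand for this mark. The comparison asks what RNA differences the cultures under these labels show.

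The Mist1- library held 14943918 counts and the Mist1+ library 16187378. Bhlha15 (ENSMUSG00000052271; chr5:144190286-144194441, plus strand, GRCm38) had an FPKM of 5.40 in Mist1- and 10.2 in Mist1+, so its level went with the labels. Of 500 genes nearest to it in exonic length, 12 had a log2 ratio as high. Gastric epithelial genes were present in both, with Epcam at 427 and 351 FPKM, Cldn18 at 548 and 584 and the corpus factor Gata4 at 31.6 and 59.6. The endocrine and antral genes Gast and Sst and the intestinal genes Cdx1 and Cdx2 had no count in either library, and the leukocyte gene Ptprc had 1 in each. Of 10 immune cell genes Cd68, of lysosomes and macrophages, was the 1 that passed, with 4.37 FPKM in Mist1-, 5.06 in Mist1+ and 24.4 in the labelled knockout. None of the listed endocrine, fibroblast or endothelial genes reached an FPKM of 1. Of 17 intestinal genes 4 did, led by the apolipoprotein gene Apoa1 (652 and 190) and villin, Vil1 (32.8 and 14.2). Tuft cell genes were represented by Avil (9.55 and 5.00) and Plcg2 (1.21 and 2.16), while the tuft cell regulator Pou2f3 had 0 counts.

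Long genes tended to be higher in the Mist1+ library and short genes lower. Over all 12787 genes 1052 (8.23%) were at least 2-fold higher in Mist1+ and 765 (5.98%) at least 2-fold lower on the scale of log2 of FPKM plus 1. The split was 3795 to 673 on TPM, 1594 to 680 on CPM and 692 to 1138 with median ratio scaling. TPM moved the median log2 ratio of all genes by 0.33 and median ratio scaling by -0.17, from 0.16. All genes were put in 5 groups of equal size by exonic length. For the protein-coding genes in them the median log2 ratio was -0.73, -0.25, 0.10, 0.38 and 0.65 from the shortest group to the longest. In the longest group 479 protein-coding genes were at least 2-fold higher and 1 was lower, and in the shortest 18 were higher and 263 lower. Counting every class, the shortest group held 362 genes (14.2%) at least 2-fold higher and 567 (22.2%) lower. A log2 ratio above 0 was held by 7528 of all 12787 genes, 2007 of 2557 in the fourth group and 2347 of 2558 in the longest. Spearman's rho between length and log2 ratio was 0.67 across 10772 protein-coding genes, a description over genes that share 2 libraries and are no replicates. The corresponding rho over all 12787 genes was 0.51, and it was 0.45 for the library labelled Gpx4 KO-Mist1+ over the same Mist1- library. The ribosomal RNA gene Rn18s-rs5 took 1.22% of the counts in Mist1- and 0.635% in Mist1+. Its part in the length trend was not tested.

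Each gene was therefore also set beside genes of like length: the median log2 ratio of the gene and its 500 nearest genes by exonic length was taken from its own. This left a rho of -0.03 with length. On this scale 575 genes (4.50%) lay at least 2-fold above genes of like length and 470 (3.68%) at least 2-fold below. Of these, 414 and 233 were in the shortest length group. Exonic length is the table's value over a gene's exons and need not be that of the transcript in the cells. At the edge of the filter, the genes just outside had a highest FPKM of 0.99 and those just inside of 1. A gene that passed through 1 library alone had to be higher there, so counts over genes that passed are descriptions.

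Within each length group the extremes were genes of different kinds. Among genes of middle length (3084 to 4638 bases) the 3 highest, counting only genes whose higher FPKM was at least 5, were Fam83b, Anpep and Cckar. Fam83b, which encodes an adaptor in growth factor signalling, had an FPKM of 1.09 in Mist1- and 10.6 in Mist1+. Aminopeptidase N, Anpep, an ectopeptidase of brush borders, was at 41.0 and 145, or 3.54-fold higher (3.39 to 3.70), and none of its 500 length neighbours had a log2 ratio as high. The lowest in that group were the fatty acid binding protein gene Fabp5 (212 and 63.1), transferrin, Trf (86.4 and 27.2), and Rpl21. In the next shorter group, Acnat1, of a family of peroxisomal acyltransferases, was at 5.72 and 25.8, and Uprt at 0.64 and 5.68. The lowest there were 2 near-identical cornified envelope genes, Sprr2a1 and Sprr2a3, whose reads can be split between copies, and galectin 3, Lgals3, at 13.0 and 2.56. In the longest group the highest were Zbed6, Hipk2 and Pik3c2a and the lowest Mrpl33, keratin 7 (Krt7, 93.2 and 46.1) and Mrpl13. Zbed6 lies inside Zc3h11a, itself among the 3 highest of its group, so their counts are uncertain. In the shortest group Gkn1, Tff1 and Ly6a were lowest, and Cblif was the one gene longer than 100 bases among the 3 highest.

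Chief cell genes were mostly higher in the Mist1+ library, and the largest ratios were those of a hormone receptor gene and of intrinsic factor. Of 16 listed genes 9 passed the filter and 7 of these had a log2 ratio above 0 (beside 7528 of all 12787 genes), with a median of 0.46. The 7 include Bhlha15 itself, the gene of the labels, and Xbp1, which was level at a log2 ratio of 0.007. Against genes of like length 8 of 9 were above, 4 of them at least 2-fold (beside 4.50% of all genes), with a median difference of 0.73. That difference was 0.30 without a filter, 0.50 with a pseudocount of 5 and 1.22 for genes with an FPKM of at least 5. By the raw ratio 2 of 9 (22.2%) were at least 2-fold higher, beside 8.23% of all genes, and none lower. In bulk RNA, fewer cells of a type and less RNA per cell cannot be told apart. The list's summed FPKM was 2158 in Mist1- and 3687 in Mist1+. Pepsinogen C and intrinsic factor made up most of these sums, so they say little of the other members.

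Cckar, the receptor through which cholecystokinin acts on zymogen-secreting cells, had 13.8 FPKM in Mist1- and 48.0 in Mist1+. This was 3.47-fold higher (3.20 to 3.76), and none of its 500 length neighbours had as high a ratio. It stands at chr5:53697776-53707705 on the minus strand in GRCm38. Intrinsic factor, Cblif (chr19:11747554-11763447, plus strand), which binds vitamin B12, was at 403 and 823 FPKM, and 7 of 500 neighbours were as high. Pgc, the pepsinogen C gene, was at 1539 and 2579 FPKM, with 22 of 500 as high. Cym, the gene of the milk-clotting protease chymosin, was at 15.1 and 21.04 FPKM. Its raw fold of 1.40 (1.20 to 1.63) was small, but its difference from genes of like length was 1.01 as genes of its length had a median below 0. Rab3d, a small GTPase on zymogen granules, was at 70.3 and 93.7 FPKM, and Xbp1, a secretory factor that acts upstream of Mist1, at 107 and 108. The remaining pair that passed, Ambp and Copz2, had levels below 3 FPKM and log2 ratios of -0.12 and -0.41. Several genes that define mature chief cells were not seen: Pga5, Lipf, Chia1, Cpb1 and Pnliprp1 had 0 counts in both libraries, which allows up to 3 counts in each. Dmbt1 and Rab26 stayed below an FPKM of 1.

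Ern2 stood apart among endoplasmic reticulum genes. It encodes IRE1-beta, a stress sensor of mucus- and enzyme-secreting epithelium, and had 19.4 FPKM in Mist1- and 60.1 in Mist1+, or 3.09-fold higher (2.86 to 3.34). None of its 500 neighbours in length was as high. Of 52 genes of the endoplasmic reticulum and unfolded protein response list that passed, 3 (5.77%) were at least 2-fold higher and 4 (7.69%) lower, near the 8.23% and 5.98% of all genes. The list median was -0.09, and 0.24 on TPM, with 26 genes above and 26 below genes of like length. Small translocon subunits were low, with Sec61g at 59.3 and 22.4 FPKM and Sec61b at 141 and 60.3. In the secretory granule and exocytosis list 1 of 30 genes (3.33%, beside 8.23% of all genes) was at least 2-fold higher. It was Mia3 (23.5 and 59.4 FPKM), which loads bulky cargo into transport vesicles. Vamp8, a membrane fusion protein of granules, was at 93.5 and 45.5. That list's median difference from like length was 0.01, and -0.01 on TPM and with median ratio scaling, and -0.10 on CPM.

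**Figure D1:**
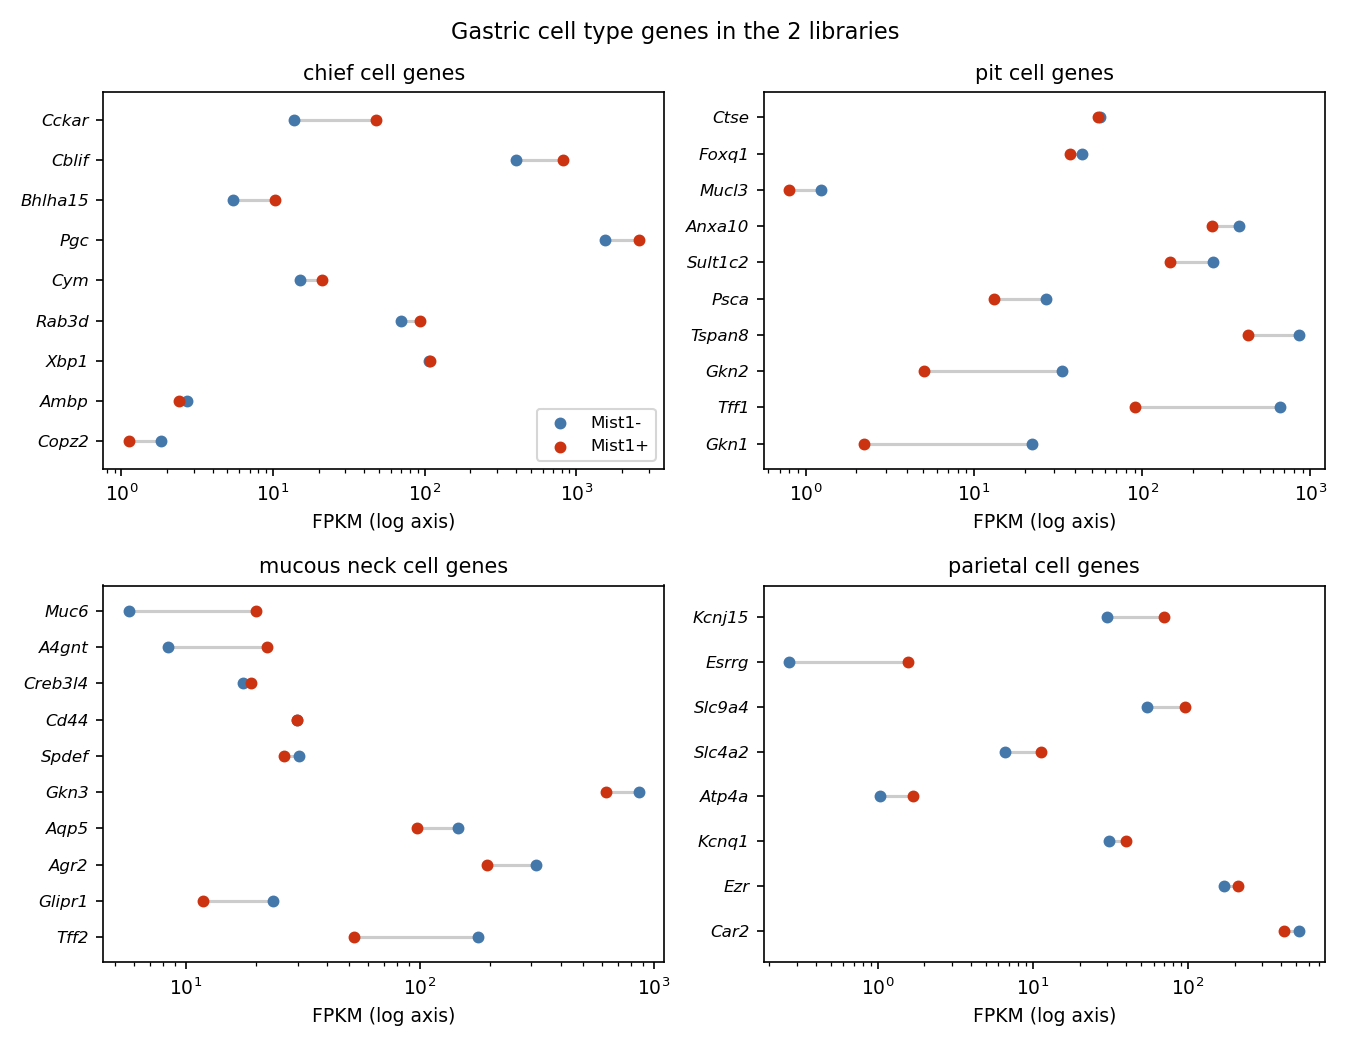
FPKM on a log axis for each gene of the chief, pit, mucous neck and parietal cell lists that passed the filter, with Mist1- in blue and Mist1+ in red and 1 library each. The Mist1+ point lies to the right for 7 of 9 chief cell and 7 of 8 parietal cell genes and to the left for 10 of 10 pit cell genes.

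Surface pit cell genes were lower in the Mist1+ library, and the secreted peptides were lower than the other members. All 10 genes that passed, of 13 listed, had a log2 ratio below 0, with a median of -0.90, and the 2-fold mark was passed by 4 (40%, beside 5.98% of all genes). All 10 were also below genes of like length, with a median difference of -0.45. Tff1, a trefoil peptide that protects the mucosa, had 657 FPKM in Mist1- and 90.6 in Mist1+, and no length neighbour was as low. The gastrokine genes Gkn1 (22.2 and 2.22 FPKM) and Gkn2 (33.5 and 5.02) were 9.97-fold and 6.67-fold lower. Tspan8, a tetraspanin of the cell surface, was at 857 and 423. The sulfotransferase gene Sult1c2 had 262 and 146 FPKM, the annexin gene Anxa10 374 and 259, and Psca, a small surface antigen, 26.8 and 13.2. Mucl3 was close to the filter, with 1.23 and 0.80. In contrast Ctse, an intracellular aspartic protease, was at 56.4 and 54.5, and the transcription factor gene Foxq1 at 43.7 and 37.1. Muc5ac, the main mucin of pit cells, had only 35 and 24 counts, which is an FPKM of 0.22 and 0.14, and Capn8 and Capn9 were also below 1.

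Mucous neck cell genes divided by product. The mucin gene Muc6 had 5.71 FPKM in Mist1- and 19.96 in Mist1+, and A4gnt, the transferase that caps this mucin's sugars, had 8.37 and 22.3. Their differences from genes of like length were 0.81 and 1.43. Tff2, the trefoil peptide packed with Muc6, went the other way, at 178 and 52.5 FPKM. The gastrokine Gkn3 (861 and 624), the water channel gene Aqp5 (146 and 97.2) and Agr2, a disulfide isomerase of mucous cells (314 and 193), were lower by less than 2-fold. Glipr1 had 23.7 and 11.8 FPKM, the secretory cell factor Spdef 30.5 and 26.2, and Creb3l4 17.5 and 18.9. Cd44 was at 29.8 and 29.9. All 10 listed genes passed, and their median was -0.34, or -0.07 against genes of like length. The secreted products Tff1, Tff2, Gkn1 and Gkn2 have exonic lengths of 584 to 1250 bases in the table and Muc6 of 15593, so their raw ratios mix with the length trend.

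Parietal cell genes of ion transport were higher in Mist1+, while those that define the cell were nearly absent. Of 16 listed genes 8 passed, 7 with a log2 ratio above 0 (beside 7528 of all 12787 genes). The list median was 0.55, with a median difference from like length of 0.33. The potassium channel gene Kcnj15 had 30.1 FPKM in Mist1- and 70.2 in Mist1+, 2.33-fold higher (2.23 to 2.44). Slc9a4, a sodium-proton exchanger, was at 54.6 and 96.0. The anion exchanger gene Slc4a2 had 6.59 and 11.2 FPKM, the potassium channel gene Kcnq1 30.9 and 39.9, and ezrin, Ezr, 171 and 210. The 1 gene with a log2 ratio below 0 was the carbonic anhydrase gene Car2, with 521 and 415. Esrrg, a nuclear receptor gene, was at 0.27 and 1.57, which is 25 and 158 counts, and passed the filter through Mist1+ alone. Atp4a, the catalytic subunit of the acid pump, was at 1.03 and 1.69, and its partner Atp4b had 0 counts in both libraries. Ckmt2 and Slc26a7 also had 0, and Aqp4, Esrrb, Hhatl, Kcne2 and Vdr stayed below an FPKM of 1.

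Transcription factors of gastric identity were mostly higher in the Mist1+ library. Of 31 that passed, 25 had a log2 ratio above 0 (beside 7528 of all 12787 genes). The list median was 0.52, with a median difference from like length of 0.16. Gata4, which specifies corpus epithelium, was 1.89-fold higher (1.79 to 1.997), with 9 of 500 neighbours as high. The pioneer factor gene Foxa1 was at 95.8 and 154 FPKM. Sox2, of foregut progenitors, was at 24.9 and 29.3. Nkx6-2, placed with antral genes, had 9 and 54 counts, and Pdx1, the antral and pancreatic factor, was at 2.79 and 1.35 FPKM.

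Receptor and pathway genes of the stem cell niche were higher in raw ratio but lay close to genes of their length. Wnt targets that passed numbered 13, with 11 above 0 (beside 7528 of all 12787 genes) and none past 2-fold on the scale of FPKM plus 1. The median difference of the Wnt list from like length was 0.15. Axin2, a feedback inhibitor of the pathway, had 2.78 FPKM in Mist1- and 5.71 in Mist1+. Rnf43, a ligase that removes Wnt receptors, was at 7.25 and 13.1. Of 22 Notch pathway genes 19 were above 0, beside 2007 of 2557 genes in the fourth length group, where the list's median length falls. The receptor Notch1 was 4.57-fold higher (3.90 to 5.37) at 0.87 and 3.99 FPKM, and Notch2 was at 2.35 and 6.63. Of this pair Notch1 passed the filter through Mist1+ alone. In the Notch list 3 genes (13.6%) were at least 2-fold higher and 1 (4.55%) lower, beside 8.23% and 5.98% of all genes. The lower one was Olfm4, a gene of intestinal stem cells and a Notch target, at 11.6 and 4.73. The median of this list lay 0.08 above genes of like length. Among EGF receptor genes, Erbb3 was at 17.7 and 37.0 FPKM and Lrig1, a negative regulator that marks gastric progenitors, at 21.9 and 42.5. The ligand gene Areg was lower, at 11.5 and 3.25.

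Cell cycle genes showed little difference as lists. The median of 48 DNA replication genes was 0.09, and -0.08 with median ratio scaling. At least 2-fold higher were 2 (4.17%, beside 8.23% of all genes), Pole (2.74 and 7.45 FPKM), a polymerase subunit, and Dnmt1 (16.5 and 36.6), which copies DNA methylation. The median of 49 mitosis genes was 0.15, and -0.04 with median ratio scaling. Kinetochore gene Knl1 had 3.32 FPKM in Mist1- and 9.70 in Mist1+ and has 8542 exonic bases. Cks2, a cyclin-dependent kinase subunit of 692 bases, was at 157 and 62.0. Plk1, a mitotic kinase of 2199 bases, did not follow its length and was at 54.1 and 86.8. Cdkn2a, the gene of the p16 and Arf inhibitors, was at 12.1 and 1.32 FPKM, and Bax, a cell death gene and p53 target, at 130 and 49.5. The 36 genes of the inhibitor and p53 list had a median of 0.07, and -0.10 with median ratio scaling.

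Hypoxia response genes were lower in the Mist1+ library, and most of them lay below genes of like length. Of 34 listed outside glycolysis 29 passed. Of these 10 (34.5%, beside 5.98% of all genes) were at least 2-fold lower and none higher. The median was -0.50 beside 0.16 for all genes, and it was -0.20 on TPM. Against genes of like length 25 of 29 were below, 8 of them at least 2-fold (beside 3.68% of all genes), with a median difference of -0.68. Cells short of oxygen keep the HIF transcription factors, which bind short elements with the core ACGTG or GCGTG in promoters and enhancers. The windows of 250 bases before the start site of 4 genes are shown, chosen because the genes were low in Mist1+ and the windows hold these letters. They are from RefSeq on GRCm38.p6, 5′ to 3′ on the gene's strand, and capitals mark ACGTG or GCGTG on either strand (CACGT or CACGC when read on the other one), with overlapping matches run together.

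Car9, chr4:43506776-43507025, plus strand: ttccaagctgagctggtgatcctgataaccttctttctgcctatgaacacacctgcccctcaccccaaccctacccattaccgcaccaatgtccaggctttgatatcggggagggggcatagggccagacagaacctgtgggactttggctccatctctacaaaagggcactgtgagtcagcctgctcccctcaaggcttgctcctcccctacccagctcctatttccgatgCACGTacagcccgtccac

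Egln3, chr12:54203875-54204124, minus strand: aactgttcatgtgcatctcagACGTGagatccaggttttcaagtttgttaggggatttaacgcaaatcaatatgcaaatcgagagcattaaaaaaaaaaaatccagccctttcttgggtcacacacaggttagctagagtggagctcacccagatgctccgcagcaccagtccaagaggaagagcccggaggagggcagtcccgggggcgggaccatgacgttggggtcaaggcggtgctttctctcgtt

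Ankrd37, chr8:45999851-46000100, minus strand: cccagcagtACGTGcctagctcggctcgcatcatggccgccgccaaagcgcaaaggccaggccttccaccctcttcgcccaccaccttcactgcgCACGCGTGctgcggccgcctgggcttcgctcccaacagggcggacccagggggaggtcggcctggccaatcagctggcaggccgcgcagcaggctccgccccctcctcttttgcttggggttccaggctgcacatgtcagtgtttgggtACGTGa

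Slc16a3, chr11:120948817-120949066, plus strand: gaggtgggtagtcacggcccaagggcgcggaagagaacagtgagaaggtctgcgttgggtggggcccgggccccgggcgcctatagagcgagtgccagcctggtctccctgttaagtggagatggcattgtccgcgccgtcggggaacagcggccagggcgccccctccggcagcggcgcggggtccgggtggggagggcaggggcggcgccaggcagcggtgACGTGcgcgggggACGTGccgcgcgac

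The core ACGTG was found on either strand in 18 of 30 windows (60%) of the hypoxia list, where 23 of the 29 genes had a RefSeq window and some genes have several start sites. For the glycolysis list it was 16 of 40 windows (40%), for ribosomal protein genes 21 of 73 (28.77%), for chief cell genes 1 of 8 and for pit cell genes 0 of 6. Of all 32851 windows of this length 16.57% held it, and of 11408 windows of genes that passed the filter 22.03%. The hypoxia list was chosen as genes of the hypoxia response. A higher share there was likely beforehand and says nothing of the 2 cultures. GCGTG is more common and was found in 45.42% of windows of genes that passed, 60% of the hypoxia windows and 52.5% of the glycolysis windows. A match is a description of letters and not a bound site. Ankrd37 had 4 matches, Slc16a3 had 2, and Car9 and Egln3 had 1 each. The sequence CATATG was scanned in the same way. It was in 0 of 8 chief cell windows and 1 of 6 pit cell windows, beside 1.49% of windows of genes that passed.

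Car9, a carbonic anhydrase of the cell surface that exports acid, had 64.9 FPKM in Mist1- and 22.1 in Mist1+. Egln3, a prolyl hydroxylase that marks HIF for destruction, was at 43.8 and 15.04. Ankrd37, a small ankyrin repeat gene, was at 29.8 and 7.71, or 3.87-fold lower (3.29 to 4.57). In each of these 3 cases at most 2 of 500 length neighbours were as low. The mitochondrial gene Fam162a was at 201 and 62.5 FPKM and the stress gene Ndrg1 at 10.6 and 3.88. Ndrg1 has 6596 exonic bases, a length at which other genes tended to be higher, and none of its 500 neighbours was as low. Anxa2, an annexin also expressed widely in epithelium, was at 273 and 105. Genes of the HIF factors themselves were not low: Hif1a was at 8.66 and 15.6 FPKM, Epas1 at 2.17 and 4.07 and Arnt at 6.23 and 11.8. Vegfa, the angiogenic factor, was at 21.7 and 24.3.

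Glycolysis and lactate genes were lower in Mist1+ as well. Of 29 entries in the list 26 passed, 7 (26.9%, beside 5.98% of all genes) were at least 2-fold lower and none higher, with a median of -0.46 and a difference from like length of -0.65. On TPM the raw median was -0.11. Slc16a3, the exporter of lactate, had 12.6 FPKM in Mist1- and 3.29 in Mist1+, 3.82-fold lower (3.34 to 4.37), and no length neighbour was as low. Enzymes of the pathway were lower by smaller folds, with the isomerase gene Tpi1 at 389 and 172 FPKM, Eno1 at 240 and 111, and Ldha, which makes lactate, at 443 and 199. Aldoc was at 7.01 and 2.16. Entry steps differed less: Slc2a1, the glucose carrier, was at 35.0 and 24.3 FPKM, Hk1 at 6.86 and 7.81 and Hk2 at 10.1 and 11.9. Pfkp, the platelet form of phosphofructokinase, was at 13.4 and 8.26 and with 13401 exonic bases was lower than all of its 500 neighbours. Glycolysis genes took 1.05% of the counts in Mist1- and 0.557% in Mist1+. Several of these enzymes have processed copies in the genome, and how their shared reads were counted is not given in the sources used here.

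**Figure D2:**
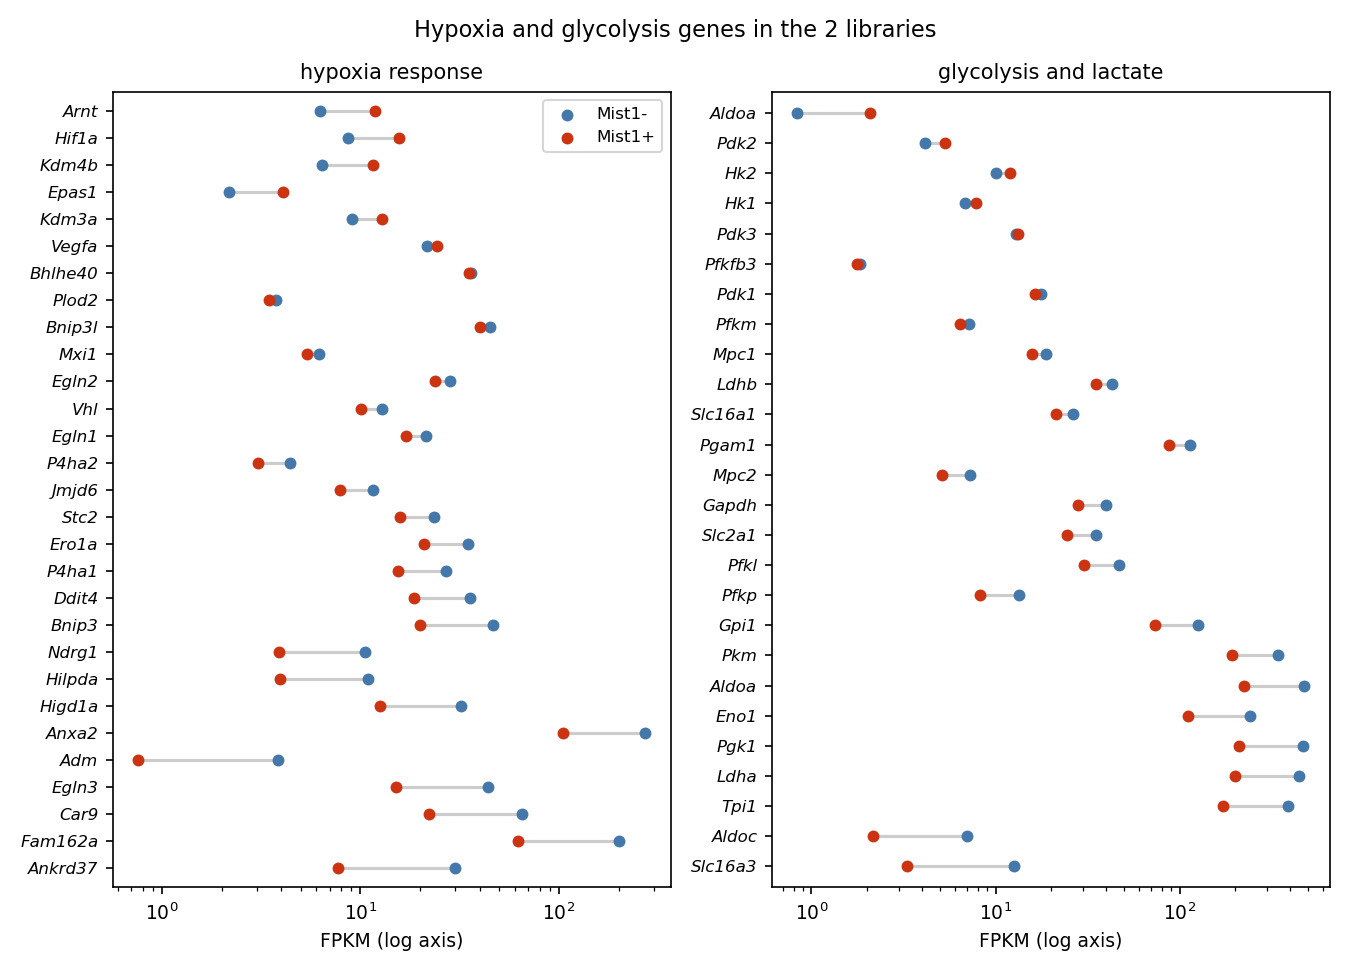
FPKM on a log axis for the 29 hypoxia and the 26 glycolysis and lactate entries that passed the filter, with Mist1- in blue and Mist1+ in red, sorted by log2 ratio. Aldoa stands on 2 rows because the table holds 2 genes of that symbol; the Mist1+ point lies to the right for 6 hypoxia and 5 glycolysis entries.

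Nuclear genes of oxidative phosphorylation were lower in Mist1+ with little spread. Of 94 that passed 49 (52.1%, beside 5.98% of all genes) were at least 2-fold lower and none higher, 1 had a log2 ratio above 0, and the median was -1.01. Against genes of like length 93 of 94 were below, 19 of them at least 2-fold (beside 3.68% of all genes). The median difference was -0.64, or -0.49 with protein-coding genes alone as the reference and -0.98 without a filter. Ndufb2, a subunit of complex I, had 9.18 FPKM in Mist1- and 3.90 in Mist1+, and none of 500 neighbours was as low. Cox6c, of cytochrome oxidase, was at 72.5 and 28.7, and the ATP synthase gene Atp5k at 146 and 45.3. The 13 mitochondrially encoded genes that code for the partner subunits had a median of -0.14, and 0.19 on TPM, and lay 0.38 above genes of like length, or 0.13 below them (-0.13) without a filter. One of them, mt-Nd5, was at 684 and 2079 FPKM, or 3.04-fold higher (2.99 to 3.09), with none of 500 neighbours as high, whereas mt-Nd1, also of complex I, was at 6076 and 5285. Mitochondrial genes have nuclear copies, so single values are uncertain. Mitochondrial counts were 3.57% of the total in Mist1- and 4.26% in Mist1+.

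Cytosolic ribosomal protein genes were lower in Mist1+ in each length group that held any. Of 85 that passed 73 (85.9%, beside 5.98% of all genes) were at least 2-fold lower and none had a log2 ratio above 0. All 85 lay below genes of like length, 40 of them at least 2-fold (beside 3.68% of all genes), with a median difference of -0.98. From the shortest length group to the fourth the median of the ribosomal protein genes was -1.38 (34 genes), -1.33 (37), -1.17 (11) and -1.55 (3). The same groups of protein-coding genes had medians of -0.73, -0.25, 0.10 and 0.38, so by listed exonic length the ribosomal genes did not follow the trend. The listed length need not be that of their transcripts, so their length neighbours may have transcripts of other lengths. Whether the trend holds by transcript length was not tested. Rps24, listed with 6256 exonic bases (chr14:24487125-24496959, plus strand), had 286 FPKM in Mist1- and 97.2 in Mist1+. Rps19, with 4685 bases, was at 208 and 70.0. Neither had a length neighbour as low. Rpl7l1, a relative of Rpl7 with a part in ribosome assembly, was the highest of the list, at 48.3 and 43.4. Together these genes took 9.25% of the counts in Mist1- and 3.95% in Mist1+. They have many processed copies, so the values of single genes are uncertain.

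Other small subunits of large complexes were lower too. Of 78 mitochondrial ribosomal protein genes 19 (24.4%, beside 5.98% of all genes) were at least 2-fold lower and 74 lay below genes of like length, with a median of -0.81. Mrpl33 had 17.7 FPKM in Mist1- and 8.28 in Mist1+, and Mrps16 had 17.8 and 6.19. Of 47 proteasome genes 5 (10.6%, beside 5.98% of all genes) were at least 2-fold lower and 45 lay below genes of like length, with a median of -0.65. Pomp, which helps assemble the core particle, was at 38.7 and 17.3, and the core subunit Psma2 at 80.3 and 33.8. Translation factors had a median of -0.33 over 68 genes, which turned to 0.05 on TPM. Eef1b2, an exchange factor of elongation, was at 428 and 184. The splicing list, with a median of 0.06 (-0.12 with median ratio scaling), held both extremes: small core proteins such as Snrpg (99.9 and 35.1) and Snrpd2 (63.3 and 25.5) were low, and the speckle protein gene Srrm2 was at 14.7 and 64.1, 4.38-fold higher (4.20 to 4.56).

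**Figure D3:**
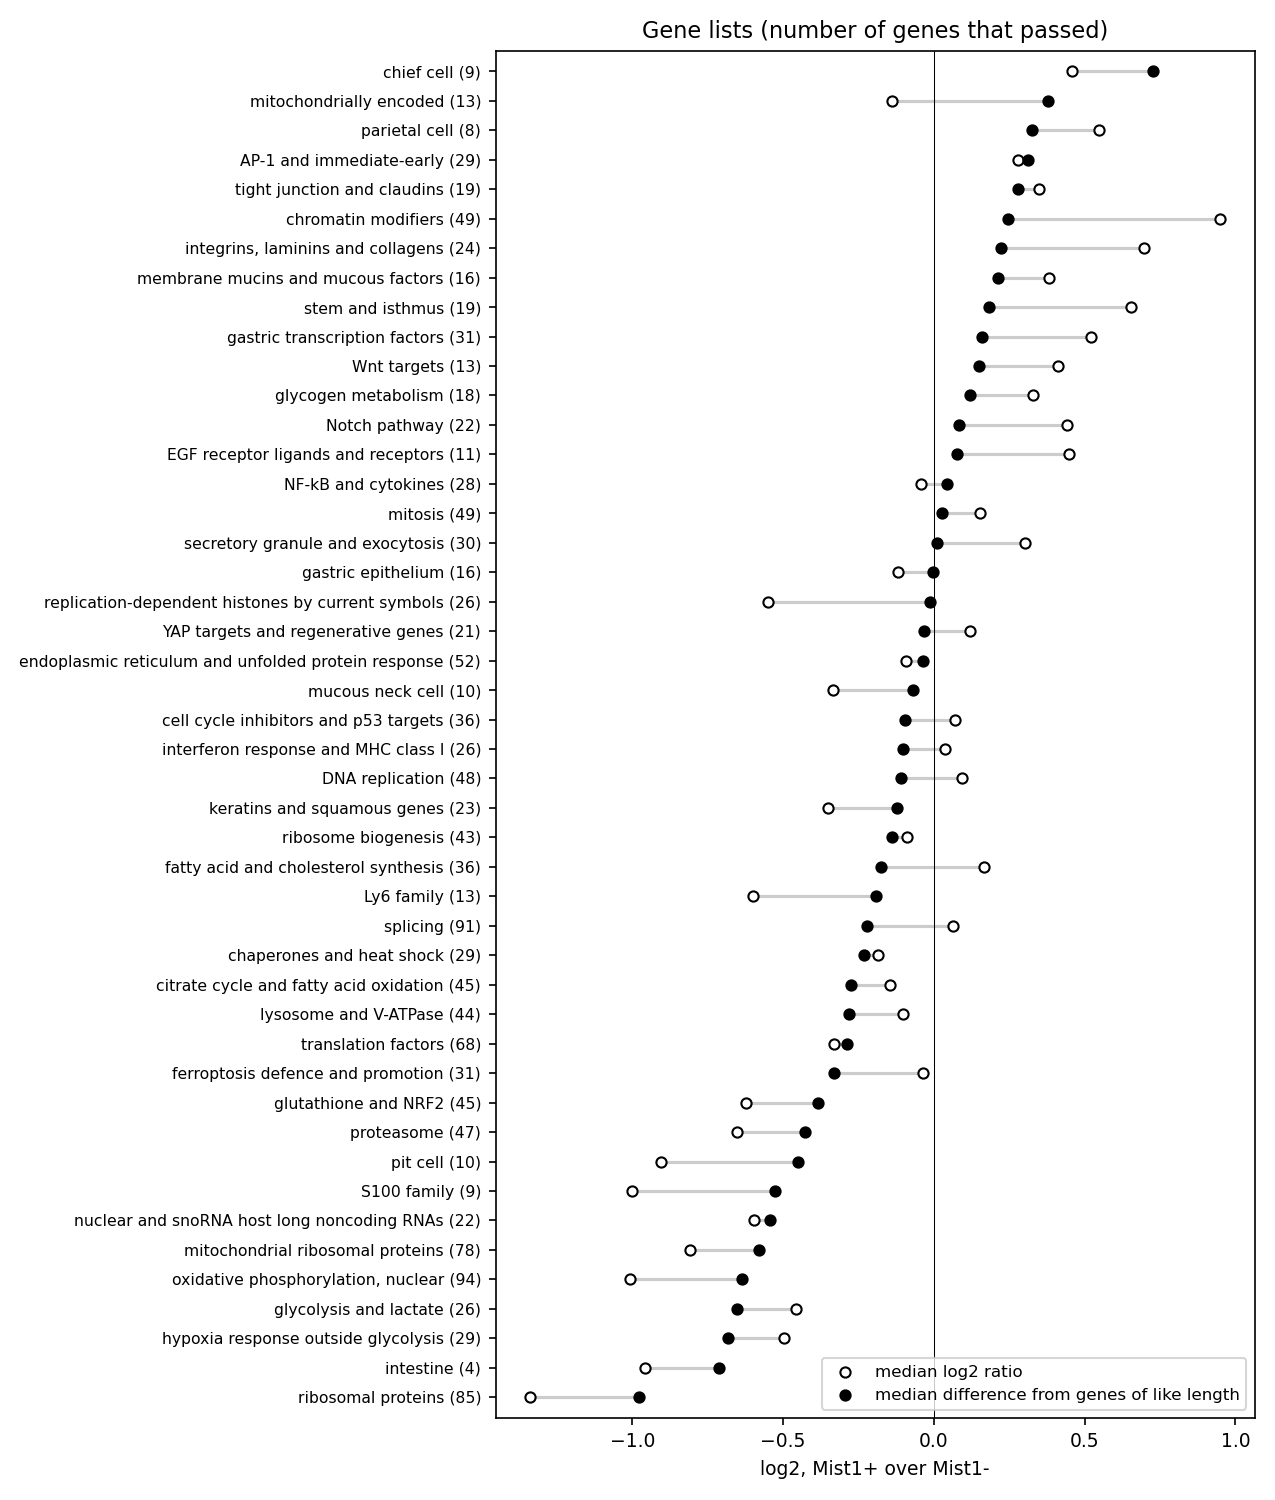
Median log2 ratio (open circles) and median difference from genes of like length (filled circles) of 45 gene lists and the histone list by current symbols, Mist1+ over Mist1-, with the number of genes that passed in brackets. With the filter and pseudocount used here chief cell genes have the highest difference from like length at 0.73 and ribosomal protein genes the lowest at -0.98; the open circle of chromatin modifiers, at 0.95, lies far above its filled one at 0.25.

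Chromatin modifiers were higher in Mist1+ and were long genes. Of 49 that passed 21 (42.9%) were at least 2-fold higher and none lower, with a median of 0.95. The share was 8.23% over all genes and 18.8% in the longest length group. Their median exonic length was 12068 bases, and the median difference from genes of like length was 0.25, with 36 of 49 above, or 0.40 without a filter. Kmt2e, a relative of histone methyltransferases, had 3.64 FPKM in Mist1- and 14.7 in Mist1+, with 3 of 500 neighbours as high. Kmt2a, which methylates histone H3, was at 1.64 and 6.54, and Arid1a, of the BAF remodelling complex, at 6.15 and 18.0. The list took 0.324% of counts in Mist1- and 0.625% in Mist1+. Hipk2, a nuclear kinase, was at 0.70 and 8.28, and Pik3c2a, a lipid kinase of endocytosis, at 3.80 and 23.5.

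Adhesion and junction genes were mostly higher in raw ratio. Of 24 integrin, laminin and collagen genes that passed, of 95 listed, 7 passed the 2-fold mark upward (29.2%, beside 8.23% of all genes) and none downward. They are long, with a median of 7018 bases. Against genes of like length 17 lay above, 2 of them at least 2-fold (beside 4.50% of all genes). The median difference was 0.22, which was 0.07 on TPM and -0.14 without a filter. The matrix glycoprotein thrombospondin 1, Thbs1, had 18.9 FPKM in Mist1- and 62.5 in Mist1+, 3.31-fold higher (3.14 to 3.50), with 1 of 500 neighbours as high. The laminin chain gene Lamc1 was at 8.36 and 21.5 and the basement membrane proteoglycan gene Hspg2 at 3.62 and 10.3. The integrin genes Itgb8 (0.83 and 3.49) and Itgb2l (0.28 and 2.33) were low in both and passed the filter through Mist1+ alone. Of 19 tight junction genes 17 lay above genes of like length, with a median difference of 0.28. Tjp1, the scaffold ZO-1, was at 11.9 and 36.8, 3.10-fold higher (2.92 to 3.30), and cingulin, Cgn, at 15.6 and 30.5. Dsp, the desmosome plaque protein, was at 18.5 and 45.8, and E-cadherin, Cdh1, at 213 and 355. The keratin genes Krt19 (756 and 413) and Krt7 were lower.

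Immediate-early genes lay above genes of like length in 24 of 29 cases, with a median difference of 0.31. Fosb, an AP-1 subunit, had 19.9 FPKM in Mist1- and 61.0 in Mist1+, 3.07-fold higher (2.92 to 3.24), with 3 of 500 neighbours as high. It was the 1 gene of the list at least 2-fold higher on the scale of FPKM plus 1 (3.45%, beside 8.23% of all genes), and 1 (3.45%, beside 5.98%) was lower. Jun was at 41.0 and 67.3, Atf3 at 21.3 and 35.3 and Nr4a2 at 4.15 and 8.68. Ier3, a survival gene that NF-kB induces, was lower, at 70.1 and 29.0. In the NF-kB and cytokine list 5 of 28 genes (17.9%, beside 5.98% of all genes) were at least 2-fold lower and none higher, among them the alarmin Il33 (43.1 and 16.4), Tnfaip2 (4.77 and 1.54) and the chemokine Cxcl5 (82.3 and 35.7). Its median was -0.04, and 0.28 on TPM. Against genes of like length 15 lay above and 13 below, with a median difference of 0.04.

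Antioxidant genes were lower as a list. Of 45 glutathione and NRF2 genes 8 (17.8%, beside 5.98% of all genes) were at least 2-fold lower and none higher, and 38 lay below genes of like length, with a median difference of -0.39, or -0.61 without a filter. Gpx4, the peroxidase that reduces lipid hydroperoxides, had 171 FPKM in Mist1- and 71.6 in Mist1+, 2.38-fold lower (2.26 to 2.52), and 22 of 500 neighbours were as low. The superoxide dismutase gene Sod1 was at 170 and 69.6 and the quinone reductase gene Nqo1 at 13.7 and 4.18. Gsta1, a glutathione transferase with near-identical copies, was at 349 and 100.3. The light chain of ferritin, Ftl1, was at 1857 and 820, and the metallothionein genes Mt1 (1240 and 606) and Mt2 (2251 and 1237) were lower as well.

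Genes of the S100 family, small calcium-binding proteins, and of the Ly6 family of small surface proteins were mostly lower in Mist1+. Of 9 S100 genes that passed 5 (55.6%, beside 5.98% of all genes) were at least 2-fold lower. Their median length was 1212 bases, and 22.2% of genes in the shortest length group were at least 2-fold lower. Against genes of like length 2 of the 9 were at least 2-fold below (beside 3.68% of all genes). The median difference of the S100 genes from like length was -0.53, with -0.91 on TPM and -0.29 for genes with an FPKM of at least 5. S100a6 had 258 FPKM in Mist1- and 51.3 in Mist1+, and its relative S100a10 had 142.5 and 40.2. Of 13 Ly6 genes 3 (23.1%, beside 5.98% of all genes and 22.2% of genes in the shortest length group) were at least 2-fold lower. Most are short, and their median difference from like length was -0.19, with 10 of 13 below. The antigen gene Ly6a was at 108 and 15.2, with 1 of 500 neighbours as low. Ly6d, known from squamous epithelium, had 75 and 12 counts. The genes Sprr1a (22.1 and 8.74) and Lgals3 shared this direction. The list of YAP targets and regenerative genes, which holds Ly6a, was balanced, with 3 of 21 genes (14.3%) at least 2-fold higher and 3 (14.3%) lower. Over all genes these shares were 8.23% and 5.98%. The median difference of the YAP list from like length was -0.03, or 0.04 on CPM. Its members Ccn1, a matrix protein gene, and Tead1, the gene of a YAP partner, had 49.9 and 66.4 FPKM and 4.19 and 11.03.

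Noncoding transcripts that passed the filter differed by class. Antisense genes lay above genes of like length in 194 of 241 cases, with a median difference of 0.66. Sense-intronic genes did so in 28 of 29 cases (median 1.35), and TEC loci, a GENCODE class of unproven transcripts, in 104 of 118 (0.87). The table holds 2958 antisense, 327 sense-intronic and 3214 TEC genes, so most did not pass. Summed FPKM of those that passed was 472, 34.4 and 228 in Mist1- and 552, 72.5 and 318 in Mist1+, so average levels were low. A gene that passed through Mist1+ alone had to be higher there. The 10772 protein-coding genes had a median difference of -0.02, and 755 processed pseudogenes one of -0.03. Whether counting used strand is not given in the sources used here, so reads of these genes and of the genes they overlap cannot be told apart. Very short RNA genes that passed were more often higher than lower in raw ratio, but on few counts. At least 2-fold higher were 63.2% of 68 miRNA, 53.8% of 39 snRNA and 39.8% of 83 snoRNA genes (beside 8.23% of all genes). At least 2-fold lower were 16.2%, 15.4% and 20.5% (beside 5.98%). Median lengths of these classes were 76.5, 107 and 128 bases, at which few counts make an FPKM of 1. Their genes that passed held 0.0028%, 0.00046% and 0.0029% of counts in Mist1- and 0.0032%, 0.0012% and 0.0034% in Mist1+. A gene can thus pass on few counts in 1 library alone, so the shares are descriptions only. The median differences of these classes from like length were 0.17, 0.26 and -0.16. The nuclear RNA Malat1 had 24.9 FPKM in Mist1- and 98.8 in Mist1+, 3.97-fold higher (3.80 to 4.14), with 1 of 500 neighbours as high. Neat1, the scaffold of paraspeckles, was at 39.7 and 74.5, which is 0.03 above genes of like length. Of 22 genes in the list of nuclear RNAs and hosts of small nucleolar RNAs 2 (9.09%) were at least 2-fold higher and 4 (18.2%) lower, beside 8.23% and 5.98% of all genes. Against genes of like length 16 lay below and 6 above, with a median difference of -0.54. The hosts Zfas1 (29.0 and 11.6) and Snhg8 (48.2 and 15.6) were among the lower members.

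**Figure D4:**
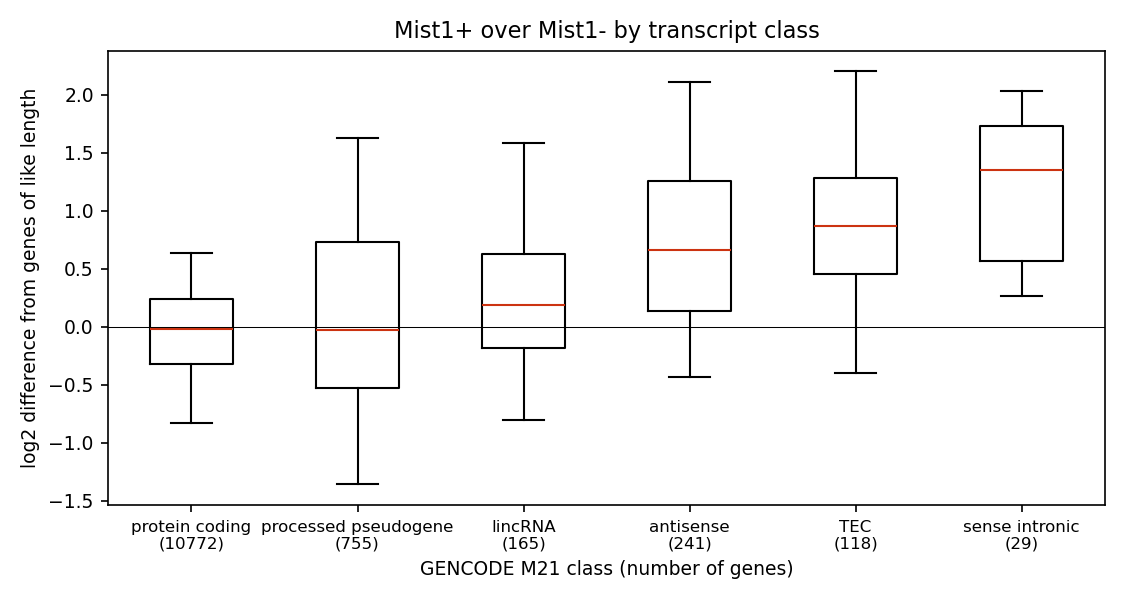
Log2 difference from genes of like length, Mist1+ over Mist1-, for 6 GENCODE M21 classes with the number of genes in brackets. The line is the median, the box spans the middle quartiles and the whiskers the range without the outer 5% on each side; the medians are -0.02 for protein-coding, 0.66 for antisense and 1.35 for sense-intronic genes.

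The library labelled Gpx4 KO-Mist1+ gives a further culture with Mist1+ in its label, and comparisons with it share the Mist1- library. Its Gpx4 level, 90.9 FPKM, was above the 71.6 of Mist1+, and reads of exons outside a deletion would be part of that value, so the genotype stands here as a label. For chromatin modifiers the median log2 ratio over Mist1- was 0.95 in Mist1+ and 0.86 in the labelled knockout. For pit cell genes it was -0.90 and -0.92, for nuclear oxidative phosphorylation genes -1.01 and -1.03, and for ribosomal protein genes -1.34 and -0.95. For chief cell genes it was 0.46 in Mist1+ and -0.03 in the labelled knockout, and for hypoxia genes -0.50 and 0.98. Cckar was at 13.8, 48.0 and 1.97 FPKM in Mist1-, Mist1+ and the labelled knockout, and Bhlha15 at 5.40, 10.2 and 6.46. Malat1 was at 24.9, 98.8 and 122, and Tff1 at 657, 90.6 and 87.7. Car9 was at 64.9, 22.1 and 283, and Ly6a at 108, 15.2 and 209. Mist1+ was thus the highest of the 3 for Cckar and Bhlha15 and the lowest for Car9 and Ly6a. For Malat1 and Tff1 both libraries with Mist1+ in the label stood on the same side of Mist1-.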

How the data were processed

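Total RNA of 3 organoid cultures was sequenced, with 1 library in each group. Per the submitters' processing notes, the authors used cutadapt 1.9.1, HISAT2 2.2.1 and HTSeq 0.6.1 with GRCm38.p5. Per the file headers, the deposited table gives a count of reads per gene and an FPKM for each library. The FPKM were recomputed from count, exonic length and column total and differed by at most 2.77% for genes with at least 50 counts. Column totals were 14943918 (Mist1-), 16187378 (Mist1+) and 16396693 (Gpx4 KO-Mist1+), and 3 counts are an FPKM of 0.201, 0.185 and 0.183 for a gene of 1 kilobase. Lines without a symbol, 2639 in all, held at most 0.298% of counts and stayed in the totals. They were neither listed nor named.

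Log2 ratios used FPKM plus 1. Folds are ratios of counts scaled to column totals, with exact 95% binomial intervals for the split of 2 counts. They cover counting error only, since reads without molecular identifiers are not independent molecules. The like-length reference is a running median over a gene and its 500 nearest by length. With 1 library a group no test or p-value was possible. The gene lists (53, of which 45 had at least 4 genes that passed) and the members named were chosen with earlier results of these data known. Named were Bhlha15, Gpx4, the 3 highest and lowest protein-coding genes of each length group with FPKM of at least 5, up to 4 genes per list by log2 ratio and by difference from like length, and any member of the 4 gastric cell lists. Other genes named (such as Hif1a, Epas1, Arnt, Vegfa, Slc2a1, Hk1, Hk2, Rpl7l1, mt-Nd1, Neat1, Epcam and Cldn18) were chosen after their values were seen. Classes and coordinates are from GENCODE M21 on GRCm38, which shares 52073 gene identifiers with the table. The start was the same for 2.85% of these, so the table's own coordinates were not used. The methods were tested on simulated data. Python 3.11.15, matplotlib 3.10.9, scipy 1.17.1, pandas 2.3.3, statsmodels 0.14.6 and numpy 2.4.6 were used. The alternatives are other pseudocounts, filters, scalings, cutoffs and length references. One gene that the naming rule takes is not reported here.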

Additional observations from a re-analysis of the deposited data

How the results depend on the processing

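No paired analysis was possible because each group holds 1 library, and for the same reason no library could be left out. Genes at least 2-fold higher and lower numbered 1881 and 1087 with a pseudocount of 0.1, 129 and 396 with 5, 617 and 608 with FPKM of at least 5, and 667 and 457 among protein-coding genes. They numbered 3795 and 673 on TPM, 692 and 1138 with median ratio scaling and 1594 and 680 on CPM. At cutoffs of 1.5-fold and 4-fold they were 3117 and 1992, and 81 and 38. Genes above and below genes of like length numbered 982 and 738 (pseudocount 0.1), 67 and 239 (5), 217 and 259 (FPKM of at least 5), 1152 and 1036 (TPM), 1399 and 1546 (1.5-fold), 72 and 62 (4-fold) and 176 and 246 (protein-coding), and without a filter 400 lay above and 861 below. The raw median of chromatin modifiers was 1.10, 0.60 and 1.38 with a pseudocount of 0.1, one of 5 and TPM. For nuclear oxidative phosphorylation genes it was -0.73 on TPM and -1.19 with median ratio scaling, for ribosomal protein genes -1.01 and -1.53, and for mitochondrial ribosomal protein genes -0.53 and -0.99, the last with -0.65 at a pseudocount of 5. Glycolysis genes had -0.11 on TPM. On TPM the medians of intestine (0.088), translation factor (0.054) and chaperone genes (0.14) turned above 0. TPM divides each library by its summed FPKM, 379460 in Mist1- and 302663 in Mist1+. The median log2 ratio of all genes rose by 0.33 with it, and 15754 genes passed the filter. What else moved these lists was not tested.

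Differences from like length are given for nuclear oxidative phosphorylation, ribosomal protein and mitochondrial ribosomal protein genes in that order. Without a filter they were -0.98, -1.32 and -0.85, with FPKM of at least 5 -0.47, -0.79 and -0.38, with protein-coding genes as the reference -0.49, -0.83 and -0.42, and in bins of length by expression -0.43, -0.79 and -0.42. With a pseudocount of 5 the first 2 were -0.74 and -1.12, and on TPM the first was -0.73. Chromatin modifiers had 0.40 without a filter. Low counts leave wide folds, such as 3.66 to 13.7 for Ly6d with 12 counts in Mist1+. The protein-coding reference, the histone list by current symbols, the transcript classes and the KEGG pathways were chosen after seeing the data.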

Other observations

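Lipid synthesis genes differed among themselves. Of 36 fatty acid and cholesterol synthesis genes the fatty acid synthase gene Fasn had 21.4 FPKM in Mist1- and 45.2 in Mist1+, while the sterol enzyme genes Fdps (64.3 and 30.4) and Msmo1 (95.6 and 64.0) were lower. The list median was 0.17 and its median difference from genes of like length -0.17. Of 44 lysosome and V-ATPase genes 32 lay below genes of like length, among them the tetraspanin gene Cd63 (69.5 and 34.7) and the cathepsin gene Ctsl (36.8 and 23.5). Their raw median was -0.10, and 0.21 on TPM. Glycogen genes had a median of 0.33 over 18 genes. One of them, Ppp1r3a, which brings protein phosphatase to glycogen, had FPKM of 2.88 (Mist1-), 18.7 (Mist1+) and 1.83 (labelled Gpx4 KO-Mist1+). The replication-dependent histone genes lay 0.01 below genes of like length, and 0.04 above with median ratio scaling and 0.13 above on CPM. With protein-coding genes alone as the reference they lay 0.27 above, with 18 of 26 above. Their raw median was -0.55 with a median length of 519 bases.

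Pathways of 15 to 200 genes that the table assigns to genes by KEGG, 236 in all, gave values for groups outside the lists. The median difference from genes of like length was -0.50 for folate biosynthesis (16 of 19 genes below), -0.48 for the pentose phosphate pathway (17 of 25) and -0.37 for fructose and mannose metabolism (24 of 30). It was 0.22 for ECM-receptor interaction (21 of 31 above), 0.17 for focal adhesion (88 of 132) and 0.33 for cortisol synthesis and secretion (20 of 28). Pathways share genes, and these were picked after their values were seen. Gastric acid secretion stood at 0.16, with 30 of 42 genes above.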
